A study of Danio rerio with 4 samples.

Results

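The genes described here encode the secreted Wnt ligands of zebrafish (Danio rerio), their Frizzled receptors, the secreted and intracellular proteins that dampen the signal, and the transcription factors lef1, tcf7, sp5a, sp5l and cdx4. They were chosen by gene name: names beginning with wnt, fzd, sfrp, dkk, nkd or axin and a digit, or with notum or sp5, and the names frzb, wif1, lef1, tcf7, znrf3 and cdx4. This gave 66 of 26267 genes: 25 ligands, 14 Frizzleds, 15 secreted antagonists, 7 intracellular feedback genes and 5 factors and targets. The name rnf43 was also part of the rule and is not analysed here. RNA was sequenced in bulk from neural crest cells sorted for the sox10:DsRed reporter at 20 hours post fertilization (hpf). The nr2f mutant group held 2 samples, carrying mutated nr2f5 and an nr2f2 genotype given as unknown, although the sample titles name both genes. The wild-type group also held 2 samples, and all 4 carried the reporter. Each sample pooled many embryos, 88 and 35 for the mutant group and 110 and 120 for the wild-type group, without a label tying a pool size to a replicate. The labels call the samples biological replicates.

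Wnt proteins bind Frizzled receptors and act along more than one route. In the beta-catenin route the signal blocks a destruction complex built on Axin, so that beta-catenin reaches Tcf and Lef factors and switches on targets, among them axin2, nkd1 and sp5 genes that feed back on the pathway. In the planar polarity route, served in zebrafish by Wnt5b and the Wnt11 proteins, the signal shapes cell movement instead. In the neural crest, Wnt signals help to induce the crest at the border of the neural plate and later bear on pigment fate and on migration. Secreted Frizzled-related proteins, Wif1 and Notum hold the ligands back outside the cell, while the founding Dickkopf protein blocks the Lrp co-receptors.

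Levels are TPM as deposited by the authors, a transcript abundance corrected for length and scaled to a sum of 1000000 in each sample, and they are added up over the transcripts of a gene. Read depth is unknown from such values, so a gene at 0 is only said to be listed at 0. The mutated gene nr2f5 stood at 46.5 and 47.1 TPM in the mutant samples, against 579 and 559 TPM in the wild-type samples. The other gene in the titles, nr2f2, had 67.2 and 51.7 TPM in mutants and 73.5 and 59.3 TPM in wild type, with overlap, and did not pass the test explained below (log2 difference -0.16, limma adjusted p = 0.67). The neural crest markers sox10, crestin, foxd3, tfap2a, snai2, sox9b, twist1a, dlx2a, mitfa and ednrab were present in every sample and summed to 3038 and 3132.5 TPM in mutants and 3179 and 3070 TPM in wild type. That sum joins opposite differences. In both mutants sox10, crestin, foxd3 and ednrab were higher than in either wild type, and tfap2a, snai2, twist1a and dlx2a were lower. Markers of other cells were present too. Summed skeletal muscle markers stood at 210 and 89.3 TPM in mutants and 617 and 2007 TPM in wild type, and myeloid markers at 22.9 and 32.0 TPM in mutants and 170 and 261 TPM in wild type. Wild-type replicate 2 stood apart for epidermis and periderm markers, with 2771.5 TPM, against 503.6 TPM in wild-type replicate 1 and 517 and 388 TPM in the mutant samples. In such bulk samples, fewer cells of a type and less RNA per cell cannot be told apart.

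Among the Wnt genes, the ligand gene wnt5b and the antagonist gene sfrp5 fell in mutants, and the posterior homeobox gene cdx4 rose. The test covered the 14217 genes whose mean over the samples reached 1 TPM, and 40 of the 66 Wnt genes were among them. A rise or fall means an adjusted p under 0.05 (limma on log2(TPM + 1), Benjamini-Hochberg adjustment over all genes tested), and log2FC is the fold change, mutant over wild type, on that log2 scale. By that measure 3 of the 40 changed, 7.5%, against a background of 4.08% of all genes tested. The 1 rise compares with a background of 1.13% and the 2 falls with one of 2.95%. The median log2FC of the 40 was -0.27, against -0.16 for all genes tested, and it changed sign with quantile normalization (0.08, against 0.03). The other 37 did not pass. An unadjusted p under 0.05 was found for 11 of the 40, and for 2900 of the 14217 genes tested. For 10 of the 40 both mutants lay above both wild types (25.0%, background 18.2%), and for 15 both lay below (37.5%, background 34.9%). The shares of groups that do not overlap, 62.5% of these genes and a background of 53.2%, are close to each other. The 26 genes left out of the test had at most 1.94 TPM in any sample. Of them 17 were ligands.

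**Figure D1:**
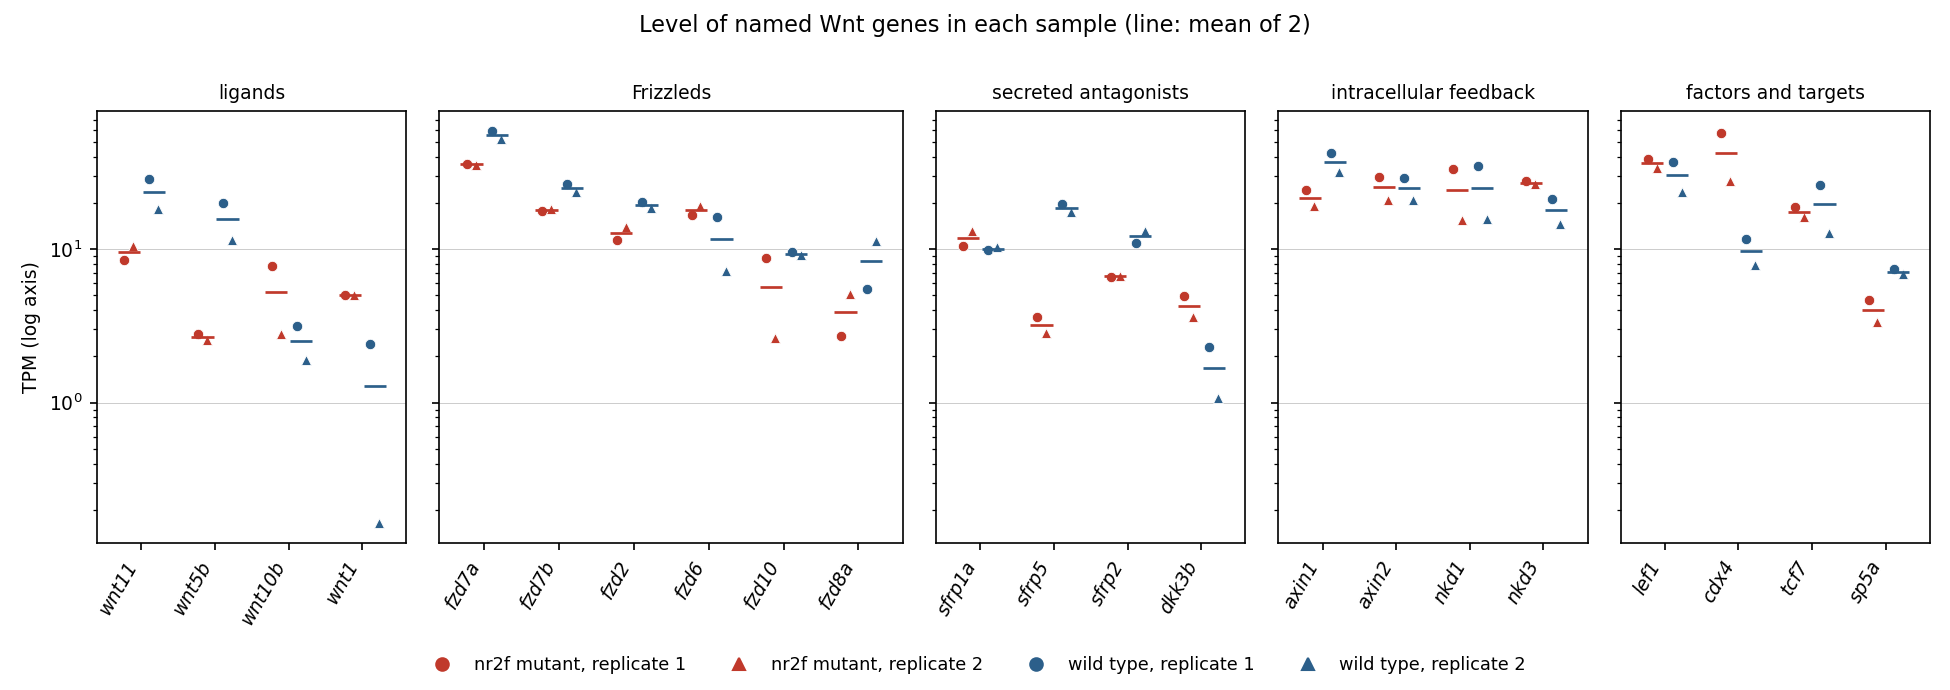
TPM on a log axis of the 22 named Wnt genes in each sample, with nr2f mutant samples left of wild-type samples, circles for replicate 1, triangles for replicate 2 and lines for the mean of the 2 samples of a group. The mutant points of wnt5b (2.79 and 2.55 TPM) and sfrp5 (3.59 and 2.83 TPM) lie well below the wild-type points, those of cdx4 (57.4 and 28.0 TPM) lie above them, and the points of axin2, nkd1, lef1 and tcf7 overlap.

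Transcripts of most ligands were scarce in these cells. At 1 TPM or more there were 10 and 6 of the 25 ligand genes in the mutants and 12 and 6 in the wild types. The summed TPM of all ligand genes was 37.6 and 27.6 in mutants and 74.5 and 44.6 in wild type. The most abundant in both wild-type samples were wnt11 and wnt5b, both of the planar polarity route. In both mutants wnt11 was still the most abundant ligand gene, while wnt10b and wnt1 lay above wnt5b. Together wnt11 and wnt5b made up 30.1% and 47.6% of the summed ligand TPM in mutants and 65.5% and 66.9% in wild type. This pair was picked after its values were seen, and its share carries no test.

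The gene wnt5b (ENSDARG00000102464), known in zebrafish as pipetail and needed for tail extension and for the shape of cartilage cells, stood at 2.79 and 2.55 TPM in mutants, against 20.0 and 11.5 TPM in wild type. Both mutant samples lay far below both wild-type samples, while the wild-type samples differed from each other more than the mutant ones did. The mean in mutants was 16.9% of that in wild type, and wnt5b fell by 2.15 ± 0.35 on the log2(TPM + 1) scale (SE, n = 2 per group, limma adjusted p = 0.012). The fall lay mainly in 1 of 3 transcripts, ENSDART00000162065, which had 1.86 and 2.25 TPM in mutants and 17.7 and 9.80 TPM in wild type and made up 76.8% of the gene's TPM in mutants and 87.1% in wild type. Leaving out mutant replicate 1 or mutant replicate 2 ended the call of wnt5b (adjusted p = 0.068 and 0.099), with log2FC values of -2.19 and -2.10. The paralog wnt5a was near 0 in every sample, with at most 0.14 TPM.

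The gene wnt11 (ENSDARG00000014796), whose product steers cell movement, had 8.53 and 10.6 TPM in mutants, against 28.8 and 18.3 TPM in wild type. The groups did not overlap, but the difference did not pass, with a log2FC of -1.19 ± 0.30 (SE, n = 2 per group, limma adjusted p = 0.060). It passed without wild-type replicate 2 (adjusted p = 0.044), with median-ratio scaling (0.045) and among genes averaging at least 5 TPM (0.046), and over the 13 alternatives tried its adjusted p ran from 0.044 to 0.25. The related wnt11f2, the silberblick gene of zebrafish gastrulation, had 2.04 and 0.588 TPM in mutants, against 3.01 and 5.13 TPM in wild type. Its groups did not overlap either, and it did not pass (log2FC -1.17 ± 0.45, adjusted p = 0.18).

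The ligand genes wnt1 and wnt8b, known from the dorsal neural tube and the midbrain, had higher values in both mutants than in either wild type, and neither passed. The gene wnt1 stood at 5.02 and 5.06 TPM in mutants, against 2.42 and 0.163 TPM in wild type. The mutant samples were nearly equal and lay above both wild-type samples, which were far apart. Its log2FC of 1.60 ± 0.51 did not pass (adjusted p = 0.12), and wnt1 was called in 1 of 12 alternatives. That one left out wild-type replicate 1, the higher of the wild-type samples (log2FC 2.38, adjusted p = 0.017), whereas without wild-type replicate 2 the log2FC was 0.82 (adjusted p = 0.32). The gene wnt8b had 2.11 and 1.61 TPM in mutants, against 0.856 and 0.352 TPM in wild type (log2FC 0.85 ± 0.44, adjusted p = 0.31). The gene wnt10b, which is expressed with wnt1, had 7.74 and 2.81 TPM in mutants, against 3.14 and 1.90 TPM in wild type, with overlapping groups (log2FC 0.73 ± 0.46, adjusted p = 0.39). Leaving out mutant replicate 1 gave 0.13, and leaving out mutant replicate 2 gave 1.33. Added to wnt3a, which had 0.872 and 0.752 TPM in mutants and 1.07 and 0.307 TPM in wild type, these genes made up 41.9% and 37.1% of ligand TPM in mutants and 10.04% and 6.11% in wild type. Their own sum was 15.7 and 10.2 TPM in mutants and 7.49 and 2.72 TPM in wild type. The shares also reflect the lower total of all ligands in mutants. This grouping was chosen after its values were seen, and it carries no test. Markers of central nervous system progenitors, which include sox2, sox3 and pax6a, summed to 395 and 249 TPM in mutants and 381 and 258 TPM in wild type. Of these 12 markers, 0 rose and 0 fell (background 1.13% and 2.95%), and 0 were listed at 0 in any sample. Both mutants lay above both wild types for 1 (8.3%, background 18.2%). This was zic1, with 27.8 and 20.9 TPM in mutants and 19.3 and 12.6 TPM in wild type (log2FC 0.60 ± 0.29, adjusted p = 0.27). They lay below for 3, pax6a, pax6b and olig2 (25.0%, background 34.9%). The part of such cells in the ligand values was not tested.

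**Figure D2:**
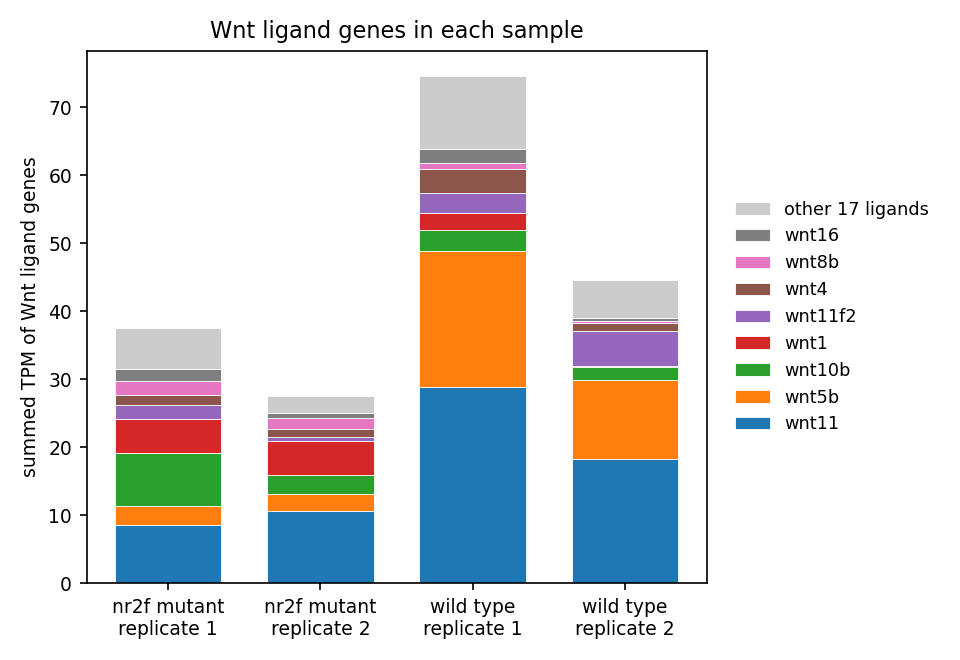
Summed TPM of the 25 Wnt ligand genes in each sample as stacked bars from 0, with the 8 most abundant genes in colour and the other 17 in grey. The bars of wnt11 and wnt5b are shorter in the mutant samples (11.3 and 13.1 TPM together) than in the wild-type samples (48.8 and 29.8 TPM), while those of wnt10b, wnt1 and wnt8b take more of each mutant bar. These genes were singled out after their values were seen.

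The remaining ligand genes were low. Both tested ones among them, wnt4 and wnt16, overlapped between the groups, with log2FC values of -0.43 ± 0.46 and 0.09 ± 0.53 (adjusted p = 0.63 and 0.94). The ligand gene wnt10a was listed at 0 in both mutants, against 1.25 and 1.42 TPM in wild type. The same held for wnt2, against 1.20 and 0.256 TPM in wild type. With wnt9b, wnt6b, wnt2ba and wnt9a, 6 ligand genes were listed at 0 in both mutant samples, while 0 ligand genes were so listed in both wild-type samples. Zeros were most frequent in mutant replicate 2, where 11 ligand genes were listed at 0, against 6 in mutant replicate 1 and 3 in each wild-type sample. None of the 6 genes listed at 0 in both mutants reached the level needed for the test. Of these, wnt6b, wnt2ba and wnt9a were also listed at 0 in wild-type replicate 1. The share of all genes so listed was not counted, so the 6 and 0 are not read as a loss of ligands. The beta-catenin route ligands wnt3 and wnt8a stayed at or below 1.94 TPM in every sample.

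Frizzled genes were more abundant than the ligands, and none of those tested passed. Their summed TPM was 107.5 and 113.1 in mutants, against 163.3 and 143.2 in wild type. Of the 12 tested, 0 rose and 0 fell (background 1.13% and 2.95%). For 6 of the 12 both mutants lay below both wild types (background 34.9%), and for 1 above them (background 18.2%). A negative log2FC was found for 11 (10 with median-ratio scaling, 7 with quantile normalization). The share of all genes tested with a negative log2FC was not counted, so the 11 have no background. The median log2FC of the 12 was -0.51, or -0.35 relative to all genes tested, whose own median was -0.16. At an unadjusted p under 0.05 there was 1, fzd7a, where 2900 of all 14217 genes tested had such a p. The median stayed negative with median-ratio scaling (-0.37, where that of all genes was -0.03) and with quantile normalization (-0.29, where that of all genes was 0.03). These counts describe the tested Frizzled genes only, without fzd8b and fzd9a.

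The most abundant receptor gene, fzd7a, whose product acts with Wnt11 proteins in cell movement in zebrafish, had 36.2 and 35.4 TPM in mutants, against 59.1 and 52.5 TPM in wild type. Both mutants lay below both wild types, and the replicates of each group were close. The difference did not pass, with a log2FC of -0.62 ± 0.19 (SE, n = 2 per group, limma adjusted p = 0.099). Its paralog fzd7b had 17.7 and 18.4 TPM in mutants, against 26.6 and 23.6 TPM in wild type (log2FC -0.45 ± 0.24, adjusted p = 0.31). The receptor gene fzd2 had 11.5 and 14.0 TPM in mutants, against 20.3 and 18.5 TPM in wild type (log2FC -0.57 ± 0.26, adjusted p = 0.25). In all of these the groups did not overlap. The share of Frizzled TPM that came from fzd7a was 33.6% and 31.3% in mutants and 36.2% and 36.7% in wild type, so its lead over the other receptors was held in every sample.

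Less abundant Frizzled genes varied more between replicates. The gene fzd8a had 2.70 and 5.14 TPM in mutants, against 5.47 and 11.4 TPM in wild type, and fzd3a had 3.25 and 2.92 TPM in mutants, against 7.78 and 4.41 TPM in wild type. Neither passed (adjusted p = 0.26 and 0.29). The gene fzd10 stood at 8.73 and 2.63 TPM in mutants, against 9.60 and 9.11 TPM in wild type, so that mutant replicate 2 alone was far from the rest (log2FC -0.80 ± 0.45, adjusted p = 0.34). The 1 tested receptor gene above 0 in log2FC was fzd6, with 16.8 and 19.0 TPM in mutants and 16.2 and 7.19 TPM in wild type. Mutant replicate 1 and wild-type replicate 1 were nearly alike there, and the log2FC of 0.67 ± 0.36 did not pass (adjusted p = 0.33). It was 0.13 without wild-type replicate 2 and 1.20 without wild-type replicate 1.

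**Figure D3:**
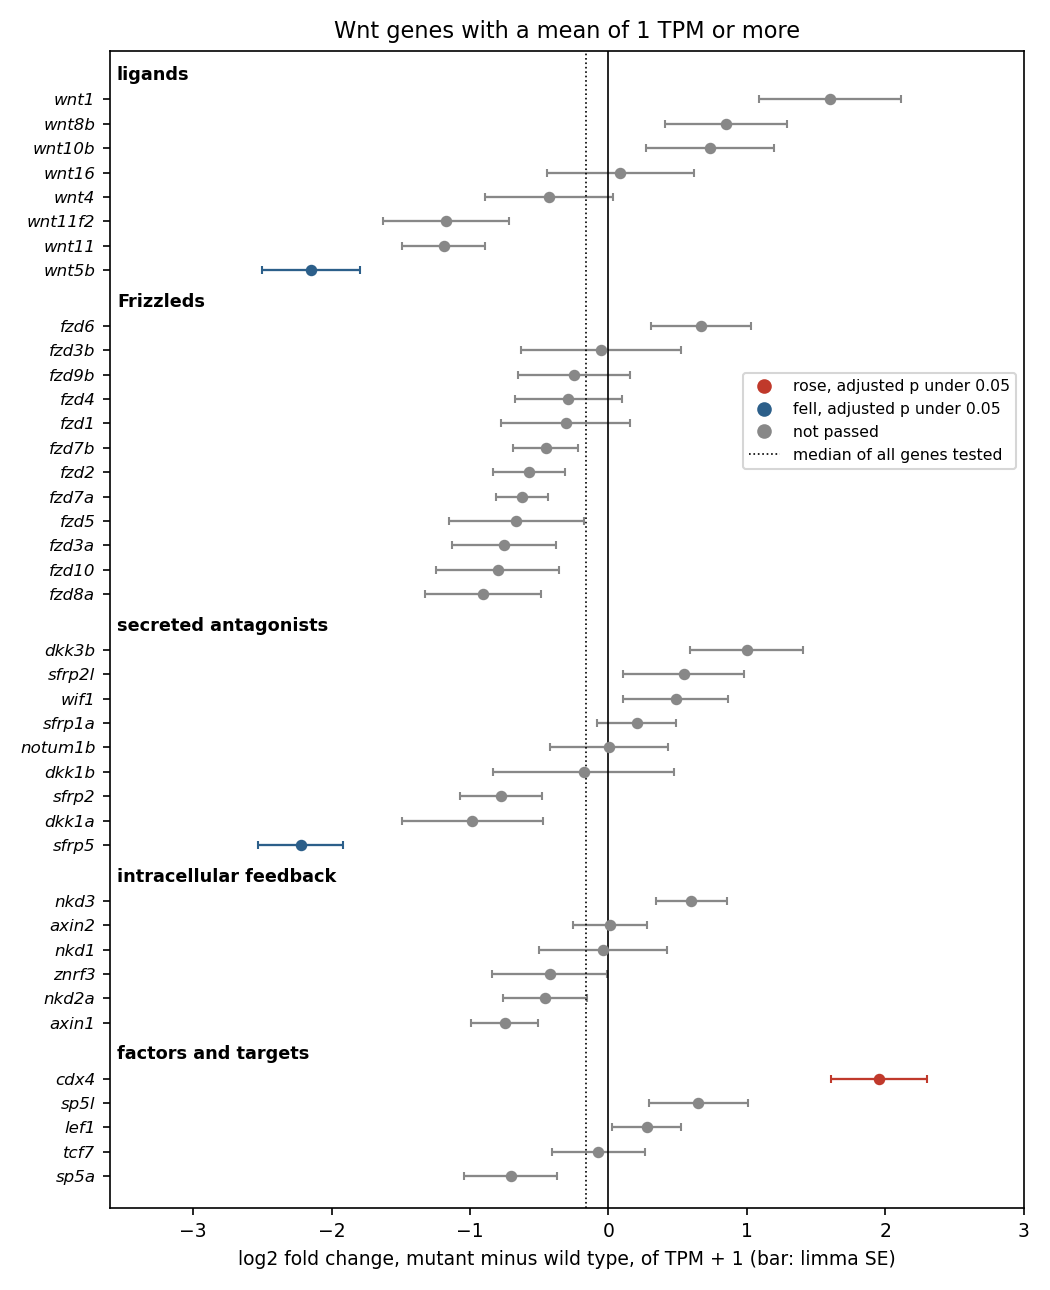
Log2 fold change (log2FC) of TPM + 1, mutant minus wild type, for the 40 tested Wnt genes by role, with the moderated standard error of limma as bars, a solid line at 0 and a dotted line at the median of all genes tested (-0.16). The genes wnt5b (-2.15) and sfrp5 (-2.22) fell and cdx4 (1.96) rose, and 11 of 12 Frizzled genes lie left of 0 without passing (10 with median-ratio scaling, 7 with quantile normalization). The share of all genes tested that lie left of 0 was not counted.

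Among the secreted antagonists, sfrp5 fell. The gene (ENSDARG00000039041) encodes a Frizzled-related protein that binds Wnt ligands outside the cell. It had 3.59 and 2.83 TPM in mutants, against 19.6 and 17.6 TPM in wild type. The replicates were close in both groups, and the mean in mutants was 17.2% of that in wild type. The log2FC was -2.22 ± 0.31 (SE, n = 2 per group, limma adjusted p = 0.0049). It was -2.09 without mutant replicate 2, where the call was lost (adjusted p = 0.058), and it was called without each of the other samples (adjusted p = 0.013 to 0.037). In wild type sfrp5 was the most abundant secreted antagonist, with 35.5% and 29.3% of the TPM of this class, and in mutants it held 9.83% and 6.98%.

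None of the other tested Frizzled-related genes passed. The gene sfrp2 had 6.58 and 6.72 TPM in mutants, against 11.0 and 13.2 TPM in wild type, without overlap, and did not pass (log2FC -0.77 ± 0.30, adjusted p = 0.18). The gene sfrp1a had 10.4 and 13.2 TPM in mutants, against 9.89 and 10.3 TPM in wild type (log2FC 0.20 ± 0.29, adjusted p = 0.72), and took the lead in this class in mutants. Their relative sfrp2l stood at 1.23 and 2.01 TPM in mutants and 0.930 and 0.634 TPM in wild type (log2FC 0.54 ± 0.44, adjusted p = 0.51). Whether these fold changes differ from that of sfrp5 was not tested.

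The Dickkopf family, whose founding member blocks the Lrp co-receptors, had 3 tested genes, of which none passed. The gene dkk3b had 4.92 and 3.62 TPM in mutants, against 2.30 and 1.08 TPM in wild type, with the mutant samples higher (log2FC 1.00 ± 0.41, adjusted p = 0.20). The gene dkk1a had 1.39 and 0.741 TPM in mutants, against 1.49 and 5.52 TPM in wild type, where wild-type replicate 2 was far above the other samples. Its paralog dkk1b showed the same lone high value, with 1.32 and 2.57 TPM in mutants and 0.574 and 5.75 TPM in wild type. Neither passed (adjusted p = 0.31 and 0.90). The same library held the high epidermis and periderm sum, and the part of those cells in the dkk1a and dkk1b values was not tested. The ligand-binding antagonist wif1 had 2.91 and 4.31 TPM in mutants, against 2.04 and 2.48 TPM in wild type (log2FC 0.49 ± 0.38, adjusted p = 0.50). The gene of the Wnt deacylase notum1b overlapped between the groups, with 2.45 and 3.03 TPM in mutants and 4.08 and 1.72 TPM in wild type. Over the 9 tested antagonists, 0 rose (background 1.13%) and 1 fell (11.1%, background 2.95%). For 4 of the 9 both mutants lay above both wild types (44.4%, background 18.2%), and for 3 below them (33.3%, background 34.9%). The median log2FC of the 9 was 0.00, or 0.17 relative to all genes tested (0.12 with median-ratio scaling and 0.39 with quantile normalization, before that subtraction).

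Of the 6 tested genes classed by name as intracellular feedback, 0 passed (background 4.08%). Their median log2FC was -0.23 (-0.11 with median-ratio scaling, 0.05 with quantile normalization). The gene axin2, a target of beta-catenin signalling that is often used as a readout of it, had 29.5 and 21.0 TPM in mutants, against 29.1 and 21.0 TPM in wild type. The values of the 2 groups lay almost on top of each other, with replicate 1 above replicate 2 in both. Its log2FC was 0.01 ± 0.27, with a 95% confidence interval of -0.58 to 0.61 (limma, n = 2 per group, adjusted p = 0.99). Changes within that range are not excluded by these samples. The interval is unadjusted and is not a limit of detection, since the adjusted test could also miss larger changes. The gene nkd1, another target whose product binds Dishevelled, had 33.1 and 15.6 TPM in mutants, against 34.7 and 15.7 TPM in wild type. Here too replicate 1 was the higher in both groups, and the log2FC was -0.04 ± 0.46 (adjusted p = 0.97).

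The other tested genes of this class were axin1, nkd3, nkd2a and znrf3, placed there by name and not by a known feedback role. The gene axin1, the scaffold of the destruction complex, had 24.2 and 19.1 TPM in mutants, against 42.3 and 31.9 TPM in wild type. Both mutants lay below both wild types, and the log2FC of -0.75 ± 0.24 did not pass (adjusted p = 0.12). The gene nkd3, of the same family as nkd1, had 28.0 and 26.4 TPM in mutants, against 21.1 and 14.7 TPM in wild type (log2FC 0.60 ± 0.26, adjusted p = 0.22). Its name covers 4 gene IDs, of which ENSDARG00000013174 held nearly all of the TPM. The gene nkd2a had 6.03 and 7.26 TPM in mutants, against 9.10 and 9.82 TPM in wild type (log2FC -0.46 ± 0.30, adjusted p = 0.42). The ubiquitin ligase gene znrf3, whose product removes Frizzleds from the surface, stood at 2.68 and 1.22 TPM in mutants and 3.24 and 2.46 TPM in wild type and did not pass either (adjusted p = 0.59). The gene nkd3l was listed at 0 in all 4 samples.

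Of the transcription factors and targets, cdx4 rose. The gene (ENSDARG00000036292) encodes a caudal-type homeobox factor that lies downstream of Wnt signals in the posterior embryo and acts on Hox genes. It had 57.4 and 28.0 TPM in mutants, against 11.6 and 7.92 TPM in wild type. Both mutants lay above both wild types, although mutant replicate 1 was far above mutant replicate 2. The mean in mutants was 437% of that in wild type, and the log2FC was 1.96 ± 0.35 (SE, n = 2 per group, limma adjusted p = 0.017). It was 1.45 without mutant replicate 1 (adjusted p = 0.12) and 1.71 without wild-type replicate 2 (0.065), and in neither case was it called. The median of all 5 tested genes of this class was 0.28, or 0.44 relative to all genes tested.

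Markers of the tailbud and posterior mesoderm, where cdx4 is also expressed, summed to 13.9 and 10.7 TPM in mutants and 19.2 and 12.2 TPM in wild type. Of the 5 of 8 that were tested, 0 passed in either direction (background 4.08%). Among them tbxta had 4.69 and 6.57 TPM in mutants and 5.01 and 0.918 TPM in wild type. The marker tbx6 had 0.696 and 0.697 TPM in mutants and 2.79 and 0.887 TPM in wild type. The largest change of the 5 was that of ripply1, with 1.60 and 0.71 TPM in mutants and 4.42 and 4.43 TPM in wild type (log2FC -1.37 ± 0.40, limma adjusted p = 0.094). Both mutants lay below both wild types for 2 of the 5, tbx6 and ripply1 (40.0%, background 34.9%), and above them for 0 (background 18.2%). The segmentation genes her1 and her7 were listed at 0 in mutant replicate 2. Central nervous system markers, given above with the ligands, overlapped between the groups in their sum. The part of tailbud or central nervous system cells in the cdx4 values was not tested.

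The remaining factors did not pass. The gene lef1, which encodes a partner of beta-catenin, had 38.6 and 33.9 TPM in mutants, against 37.2 and 23.6 TPM in wild type. Its groups overlapped, with a log2FC of 0.28 ± 0.25 and a 95% confidence interval of -0.28 to 0.84 (adjusted p = 0.56). Most of it came from the transcript ENSDART00000132405, with 72.0% of the gene's TPM in mutants and 70.8% in wild type. The gene tcf7, which acts beside lef1, had 18.8 and 16.2 TPM in mutants, against 26.4 and 12.8 TPM in wild type (log2FC -0.07 ± 0.33, adjusted p = 0.92). Of its 9 transcripts, ENSDART00000157136 held 46.9% of the TPM in mutants and 46.1% in wild type.

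The Sp5 genes, direct targets of beta-catenin signalling, lay on opposite sides. The gene sp5a had 4.69 and 3.37 TPM in mutants, against 7.39 and 6.89 TPM in wild type, with mutant samples lower (log2FC -0.71 ± 0.34, adjusted p = 0.27). The gene sp5l had 5.99 and 4.47 TPM in mutants, against 2.90 and 2.99 TPM in wild type, with mutant samples higher (log2FC 0.65 ± 0.36, adjusted p = 0.34). Neither passed, and the difference between them was not tested.

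**Figure D4:**
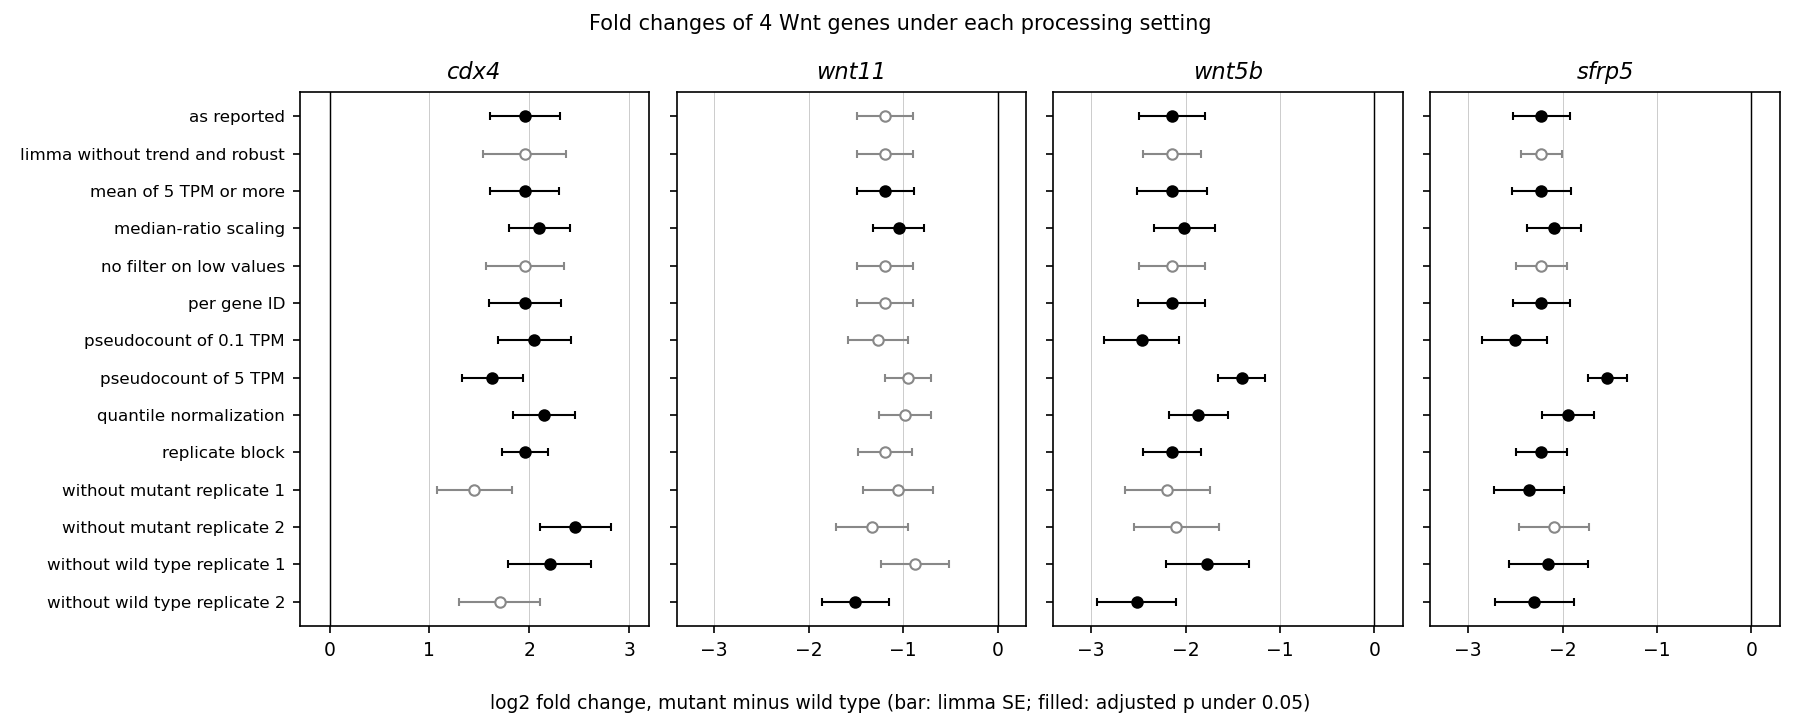
Log2FC, mutant minus wild type, of cdx4, wnt11, wnt5b and sfrp5 as reported and under each of 13 alternative settings, with limma's standard error as bars and filled points where the adjusted p was under 0.05. All points keep their side of 0, and the filled points number 9 of 13 alternatives for cdx4, 9 for wnt5b, 10 for sfrp5 and 3 for wnt11.

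The rest of the pathway was described by 5 lists of 60 genes. Of the 40 tested, 0 rose and 1 fell (2.5%, against a background of 2.95% falling), with a median log2FC of -0.34, or -0.18 relative to all genes tested. Both mutants lay below both wild types for 18 of the 40 (45.0%, background 34.9%) and above them for 2 (5.0%, background 18.2%). The gene that fell was scrib, which encodes a scaffold of cell polarity. It had 16.2 and 8.53 TPM in mutants, against 31.9 and 29.3 TPM in wild type (log2FC -1.30 ± 0.31, adjusted p = 0.048). It was not called without mutant replicate 2, where the log2FC was -0.87 (adjusted p = 0.28), without wild-type replicate 1 (0.12) and without wild-type replicate 2 (0.090).

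Planar polarity genes had the lowest median of the 5 lists. Of 8 tested, 0 rose (background 1.13%) and 1 fell (12.5%, background 2.95%). The median log2FC was -0.70, or -0.54 relative to all genes tested, and it stayed negative with median-ratio scaling (-0.55) and quantile normalization (-0.48). The core polarity gene vangl2 had 18.7 and 14.0 TPM in mutants, against 35.2 and 21.7 TPM in wild type (log2FC -0.74 ± 0.29, adjusted p = 0.19). Its partner prickle1b had 11.2 and 21.9 TPM in mutants, against 25.8 and 25.2 TPM in wild type, so that mutant replicate 1 was the lowest sample (adjusted p = 0.27). Over the 8 tested genes both mutants lay below both wild types for 5 (62.5%, background 34.9%) and above them for 0 (background 18.2%).

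In the cytoplasm, 0 of 14 tested genes of the beta-catenin route passed (background 4.08%). Their log2FC ran from -1.18 to 0.02, with a median of -0.37, or -0.21 relative to all genes tested. For 8 of the 14 both mutants lay below both wild types (57.1%, background 34.9%), and for 0 above them (background 18.2%). An unadjusted p under 0.05 was found for 5 of the 14, where 2900 of all 14217 genes tested had one. The gene of beta-catenin itself, ctnnb1, had 720 and 499.95 TPM in mutants, against 926 and 635 TPM in wild type, with overlap (log2FC -0.35 ± 0.25, adjusted p = 0.49). The casein kinase gene csnk1a1 had 284 and 236 TPM in mutants, against 350 and 329 TPM in wild type (log2FC -0.39 ± 0.13, adjusted p = 0.12). Among 8 tested nuclear partners 0 passed (background 4.08%). Their log2FC ran from -1.03 to 0.21, with a median of -0.29, or -0.13 relative to all genes tested. For 4 of the 8 both mutants lay below both wild types (background 34.9%), and for 1 above them (background 18.2%). An unadjusted p under 0.05 was found for 3 of the 8, against the same 2900 of 14217. The most abundant nuclear partners were tcf7l1a, a Tcf factor that can repress targets, and the corepressor gene tle3b. The gene tcf7l1a had 102 and 86.8 TPM in mutants, against 81.4 and 80.8 TPM in wild type (adjusted p = 0.46). The gene tle3b had 82.7 and 70.3 TPM in mutants, against 106 and 88.1 TPM in wild type (adjusted p = 0.29).

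No gene of Wnt secretion, co-receptors or R-spondins passed. The gene wls, whose product carries Wnt proteins to the cell surface, had 71.5 and 73.7 TPM in mutants, against 86.4 and 62.0 TPM in wild type (log2FC -0.01, adjusted p = 0.98), and the glypican gene gpc4 had 17.3 and 10.2 TPM in mutants, against 26.1 and 13.7 TPM in wild type (adjusted p = 0.48). The R-spondin gene rspo3, which boosts Wnt signals, had 17.7 and 18.6 TPM in mutants, against 21.1 and 12.8 TPM in wild type (adjusted p = 0.82), and its receptor gene lgr4 had 2.01 and 2.78 TPM in mutants, against 2.43 and 2.57 TPM in wild type (adjusted p = 0.95). These lists held 7 and 3 tested genes, of which 0 rose and 0 fell (background 1.13% and 2.95%). Of the same genes 0 had an unadjusted p under 0.05 (2900 of 14217 over all genes tested).

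Some markers of other cells were also lower in mutants. For all 8 tested skeletal muscle markers both mutants lay below both wild types, and 4 fell; for all 7 tested myeloid markers the same held, and 5 fell (background 34.9% below, 2.95% falling). Of 8 endothelial markers 2 fell (25.0%, background 2.95%), with sums of 43.3 and 33.4 TPM in mutants and 109 and 56.2 TPM in wild type. For 6 of the 8 both mutants lay below both wild types (75.0%, background 34.9%). Of 7 tested epidermis and periderm markers 1 fell (14.3%, background 2.95%), and for 3 both mutants lay below both wild types (42.9%, background 34.9%). Of 7 tested otic vesicle markers 0 rose and 0 fell (background 1.13% and 2.95%). Both mutants lay above both wild types for 4 of these 7 (background 18.2%) and below them for 1 (background 34.9%). Among those 4 was sox10, which is also counted with the crest markers and gives the sorting reporter its name. The muscle marker tnnt3b was listed at 0 in wild-type replicate 2, the myeloid marker lyz in both mutant samples, mpx in mutant replicate 2 and wild-type replicate 1, and the epidermis marker krtt1c19e in both mutant samples. The crest markers in the same samples moved both ways. Of the 10, crestin and foxd3 rose (20.0%, background 1.13%), and snai2, twist1a and dlx2a fell (30.0%, background 2.95%). Their groups did not overlap for 4 above and 4 below (40.0% each, background 18.2% and 34.9%). The part of other cells in the values of wnt5b, sfrp5, wnt11 and scrib was not tested. Without wild-type replicate 2, the log2FC was -2.52 for wnt5b and -2.30 for sfrp5. The muscle and myeloid sums, given above, were higher in wild-type replicate 2 than in wild-type replicate 1. The endothelial sum was lower there. In wild-type replicate 1 the muscle, myeloid and endothelial sums exceeded those of both mutants.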

How the data were processed

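RNA of sorted sox10:DsRed cells was reverse-transcribed and amplified with the SMARTer kit, per the labels. The authors deposited 1 table of TPM for 65905 Ensembl transcripts, of which 57775 had values and 8130 were empty in all samples. Per the submitters' processing notes, kallisto and the build GRCz11 were used; its version, any filters and the annotation used are not given in the sources used here. TPM keeps no read depth, so no count model or counting interval was used, and a gene's TPM can shift when other genes take more or less of the total.

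From this table, TPM was summed per gene name; 14 of the 66 Wnt names joined 2 or more gene IDs. Values were tested as log2(TPM + 1), for genes averaging at least 1 TPM, with limma 3.58.1 in R 4.3.3 (trend and robust moderation, statmod 1.5.0), mutant minus wild type, without further terms. The small pseudocount understates fold changes of low genes. P-values are two-sided and carry Benjamini-Hochberg adjustment over 14217 tested genes, errors are moderated standard errors, and the confidence intervals are unadjusted. With 2 samples a group, p-values rest on the spread between these samples, which limma combined with a spread estimated over all genes tested.

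The Wnt genes, the marker and pathway lists and the alternatives were chosen with earlier results of these data known. Values were fully described for Wnt genes that passed, the 4 most abundant of each role, and up to 5 largest changes each way among those at a mean of 5 TPM or more whose groups did not overlap. In the other pathway lists they were described for genes that passed and the 2 most abundant. Other genes with values were named after those were seen: wnt11f2, wnt8b, wnt3a, wnt5a, wnt4, wnt16, wnt10a, wnt2, fzd3a, sfrp2l, dkk1a, dkk1b, wif1, notum1b, nkd2a, znrf3, sp5l and the pathway gene prickle1b. Alternatives were other pseudocounts, filters and scalings, the replicate number as a block, plain moderation, sums per gene ID and each sample left out. No sequences were analysed.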

Additional observations from a re-analysis of the deposited data

How the results depend on the processing

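Without trend and robust moderation limma called 0 genes (2531 at an unadjusted p under 0.05), 0 Wnt genes (14) and 0 other pathway genes (7). With no filter on low values it called 4 genes (3446), 0 Wnt genes (14) and 0 other pathway genes (8). When 1 sample was left out, 110 to 647 genes were called, against 580 with all, namely 149 without mutant replicate 1, 110 without mutant replicate 2, and 374 when wild-type replicate 2 was left out. The counts were 1 to 4 for Wnt genes, with 1 without mutant replicate 1 (sfrp5) and 1 without mutant replicate 2 (cdx4), and 0 to 1 for other pathway genes. A group left with 1 sample is assumed to vary like the other. The call of scrib was also lost with a pseudocount of 0.1 TPM and with quantile normalization, which left 0 other pathway genes. The share of rises among calls was 27.8%, 43.5% with median-ratio scaling and 48.1% with quantile normalization. The replicate block called 565 genes, 3 Wnt genes (cdx4, sfrp5 and wnt5b) and 2 other pathway genes, scrib and tle3a. The numbers do not pair the samples by the labels, and the deviations of same-numbered samples correlated at r = -0.01 across genes. Of 295 values for named genes under alternatives, 284 kept their direction. The others were not called in any setting: nkd1 had a log2FC of 0.11 with median-ratio scaling and 0.13 with quantile normalization, and tcf7 had 0.075 and 0.11 there. With 1 sample left out the log2FC ran from -0.59 to 0.51 for nkd1, from -0.57 to 0.43 for tcf7, from -0.23 to 0.25 for axin2 and from -0.041 to 0.59 for lef1. The causes were not tested. Depth is unknown, which limits what can be said of genes near 0.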
